A study of Mus musculus with 5 samples.

Results

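The histone genes measured here are the 81 genes of the deposited gene list whose symbols begin with Hist1h to Hist4h, H2af or H3f3, and 67 of them had at least 20 UMIs (unique molecular identifiers, one per captured RNA molecule) over all cells kept. They were 67 of 28692 listed genes, and were made up of 58 Hist genes, 8 genes of histone variants and H3f3aos, an antisense RNA of H3f3a with 29 UMIs. Of the 14 genes below the limit 5 had no UMI. H2afy2 with 21 UMIs and Hist2h3b with 24 lay just inside the limit, and Hist1h4m with 19 and Hist1h2ao with 14 just outside it.

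Histones H2A, H2B, H3 and H4 form the core around which DNA is wound in a nucleosome, and linker histone H1 binds the DNA between nucleosomes. Most Hist genes sit in clusters and are replication-dependent: they are transcribed in S phase, and their messages end in a stem-loop bound by Slbp in place of a poly(A) tail. Variant genes such as H2afz and H3f3b are transcribed throughout the cell cycle, carry poly(A) tails, and supply histones that are exchanged into chromatin outside replication. A droplet kit that primes on poly(A) therefore does not read most replication-dependent messages, so the Hist counts are not a measure of total histone mRNA.

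Immune cells were profiled from B16-F10 melanomas, grown from 500000 cells placed under the skin of mice and removed on day 11. Live cells bearing CD45, a surface protein of blood-derived cells, were sorted and their RNA was read from the 5′ end in single cells. There was 1 library for each of PBS (vehicle), anti-PD1 (an antibody to the T cell checkpoint receptor PD-1), IL15 superagonist, the combination of superagonist with anti-PD1, and the anti-PD1-IL15 protein fusion. The combination is named with the superagonist in its title but with IL15 alone in its treatment label, and the labels place treatment after resection. The sources used here do not give mouse strain, age, doses or how many mice made up a library.

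The 5 libraries held 6015 to 8747 barcodes and 32832856 to 81565425 UMIs, lowest in PBS and highest in fusion, and 37074 of 37468 barcodes were kept. Cell classes were gated on markers that include no histone gene, and each is called "-like" for that reason. T cell markers summed to 2638 to 4482 UMIs per 1000000 UMIs of the group (CPM) in the cycle gates of CD8 T-like cells, against 2.30 to 55.7 CPM for the macrophage list, 8.15 to 35.7 for the DC list and 128 to 263 for the NK list there. The general myeloid list stood at 176 to 474 CPM and the monocyte list at 1284 to 2475 CPM in the same gates, the latter with Chil3 at 0 in 9 of 15 gate and library pairs. The part of these lists in the results for CD8 T-like cells was not tested. A cell with at least 4 of 48 cell cycle genes was called cycling, and S-like or G2M-like by which list it held the larger share of, and a cell with at most 1 was called non-cycling. The S-like gate still held 734 to 1408 CPM of the G2M list and the G2M-like gate 1657 to 2173 CPM of the S list. Of all barcodes 768 occurred in 2 libraries and 6 in 3.

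The mark of a replication-dependent histone message is a stem of 6 base pairs with a loop of 4 bases, and the sites of 8 much counted Hist genes and of H2afx are shown because the counts below are of genes that do and do not carry it. The 16 bases of the stem-loop (searched as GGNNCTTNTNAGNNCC on the transcript strand) are in capitals. Transcripts and coordinates are those of GENCODE release M21 on mm10.
Hist1h2ae, chr13:23570663-23570688: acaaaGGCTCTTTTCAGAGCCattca
Hist1h2ap, chr13:21833026-21833049: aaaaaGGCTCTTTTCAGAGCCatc
Hist1h1e, chr13:23621777-23621802: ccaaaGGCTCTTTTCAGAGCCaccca
Hist1h1c, chr13:23739507-23739532: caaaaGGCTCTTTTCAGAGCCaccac
Hist1h1d, chr13:23555782-23555807: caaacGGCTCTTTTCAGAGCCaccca
Hist1h3e, chr13:23561898-23561923: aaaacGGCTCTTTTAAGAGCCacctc
Hist1h4i, chr13:22040961-22040986: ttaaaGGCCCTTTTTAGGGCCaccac
Hist1h4d, chr13:23581945-23581970: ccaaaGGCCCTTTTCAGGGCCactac
H2afx, chr9:44335235-44335260: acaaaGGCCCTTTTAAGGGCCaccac
The 5 H2A and H1 genes shown share one core, and the H3 and H4 genes and H2afx have other letters in the stem or loop. Over the 67 genes, 40 had such a site in an annotated transcript, namely 39 Hist genes and H2afx, with 9 different cores, and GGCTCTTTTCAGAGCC was in 21 genes, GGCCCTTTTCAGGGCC in 6 and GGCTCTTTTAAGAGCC in 5. The annotated transcripts of 17 Hist genes held none, among them those of Hist1h1b and Hist1h1a, whose models stop at the end of the coding sequence. Of the 39 Hist genes with a site, 17 had models that end within 60 bases of it, with a median of 138 UMIs a gene, and 21 had models that run more than 100 bases past it, with a median of 691 UMIs. The H2afx transcript, which can be made in both forms, runs 822 bases past its site.

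The bases before the transcription start are shown for 4 genes that rose together in cycling cells below and for 2 abundant variant genes, because many histone promoters share the CCAAT box and the TATA box. Each line gives the 120 bases upstream of the start from RefSeq on GRCm38.p6, read along the gene's strand, and capitals mark, on either strand, CCAAT, the sequence TATAAA of the TATA box, the letters TTTGAA found ahead of many H2B genes, the sequence AAACACA of H1 promoters, and the octamer ATTTGCAT.
Hist1h1b, chr13:21780626-21780745, minus strand: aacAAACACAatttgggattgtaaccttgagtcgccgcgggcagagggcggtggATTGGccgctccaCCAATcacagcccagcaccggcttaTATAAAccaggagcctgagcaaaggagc
Hist1h1e, chr13:23622559-23622678, minus strand: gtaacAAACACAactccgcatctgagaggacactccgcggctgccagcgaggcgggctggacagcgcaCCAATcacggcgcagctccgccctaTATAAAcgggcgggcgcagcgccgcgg
Hist1h2ae, chr13:23571221-23571340, minus strand: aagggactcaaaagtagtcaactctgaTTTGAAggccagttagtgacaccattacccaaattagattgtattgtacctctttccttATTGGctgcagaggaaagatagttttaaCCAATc
Hist1h4d, chr13:23581448-23581567, plus strand: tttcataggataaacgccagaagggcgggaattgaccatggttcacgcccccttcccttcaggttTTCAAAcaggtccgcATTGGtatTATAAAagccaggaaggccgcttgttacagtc
H2afz, chr3:137864367-137864486, plus strand: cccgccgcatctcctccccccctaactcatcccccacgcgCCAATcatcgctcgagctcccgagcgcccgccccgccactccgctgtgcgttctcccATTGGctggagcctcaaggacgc
H3f3b, chr11:116024505-116024624, minus strand: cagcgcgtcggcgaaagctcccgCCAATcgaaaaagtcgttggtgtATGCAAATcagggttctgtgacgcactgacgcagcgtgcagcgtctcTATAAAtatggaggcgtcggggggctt
Both H1 promoters carry AAACACA and a CCAAT box ahead of TATAAA. In the 250 bases upstream, CCAAT was found in 39 of 49 Hist promoters (79.6%) and in 33.8% of 32851 RefSeq promoters, and TATAAA in 25 of 49 (51.0%) and 12.4%. TTTGAA was in 20 of 49 (40.8%) and 16%. The octamer ATTTGCAT, which Oct factors bind in H2B promoters, was in 10 of 49 (20.4%) and 1.60%, and AAACACA in 5 of 49 (10.2%) and 6.25%. Of 7 variant promoters 5 held CCAAT and 1 TATAAA. The 49 Hist promoters count that of Hist2h2bb for each of its 2 gene identifiers, which share it. They leave out Hist1h2ap and Hist1h2bc, among others. These are matches of letters, on promoters that can overlap where a pair of Hist genes is transcribed in opposite directions from one stretch, as Hist1h2ae and Hist1h2bg are.

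Variant genes gave nearly all of the histone RNA counted: 1851437 of 1942879 UMIs (95.3%), which together were 0.749% of the UMIs of all genes. H3f3b and H3f3a, which encode the same protein H3.3, had 804414 and 344700 UMIs, and H2afz, the gene of H2A.Z.1, 422195. H2afj (an H2A variant) had 101170, H2afv (H2A.Z.2) 70049, H2afy (macroH2A1) 66654, H2afx (H2A.X, phosphorylated at DNA breaks) 42234 and H2afy2 (macroH2A2) 21. These are molecules counted per gene, not levels per length of RNA.

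The 58 Hist genes gave 91413 UMIs (4.71%), of which the 5 linker histone genes had 42.9%, 14 H2A genes 26.9%, 16 H2B genes 11.7%, 11 H3 genes 5.94% and 12 H4 genes 12.5%. Families were set by symbol. Among the H2A genes, Hist1h2al (91 UMIs) is annotated as a processed pseudogene. The symbol Hist2h2bb stands for a lincRNA (83 UMIs) and for a protein-coding H2B gene (1229 UMIs), and both are counted. The 12 Hist genes with the most UMIs held 77.1% of the Hist total. They were the linker genes Hist1h1b (15633 UMIs), Hist1h1e (11566), Hist1h1c (6882), Hist1h1d (2805) and Hist1h1a (2314), the H2A genes Hist1h2ae (12850), Hist1h2ap (3308) and Hist2h2ac (2050), the H4 genes Hist1h4i (4433) and Hist1h4d (3276), Hist1h2bj for H2B (3047) and Hist1h3e for H3 (2313). On chromosome 13, 42 Hist genes lie between 21715763 and 23764406 (mm10).

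Several of these genes are near-identical in sequence, and the sources used here do not state how the authors' counting treated reads that fit more than one gene. Of the 50-base stretches of the annotated transcript, 93.1% occurred in another transcript's gene for Hist1h2ap, 73.4% for Hist1h3e, 59.4% for Hist1h2bj, 43.2% for Hist1h2ae, 38.6% for Hist2h2ac, 32.0% for Hist1h1e and 28.9% for Hist1h4i. The share was 10.2% for Hist1h4d, 8.54% for Hist1h1c, 2.25% for Hist1h1d and 0% for Hist1h1b and Hist1h1a. Values of the first 7 are therefore uncertain between gene copies. Among matched Hist genes with fewer UMIs that are named below, the share ran from 0% for Hist2h2be to 87.6% for Hist1h3i. It was 79.7% for Hist1h2af and 71.5% for Hist1h4k, and values of genes with such shares are uncertain in the same way.

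In CD8 T-like cells, the cytotoxic T cells, Hist genes were lowest in non-cycling cells, higher in S-like cells and highest in G2M-like cells in each of the 5 libraries. Summed Hist RNA was 124, 157, 110, 103 and 145 CPM in non-cycling cells, with libraries given, here and below, with PBS first, then anti-PD1, then IL15 superagonist, then combination, and fusion last. In the same order it was 527, 473, 414, 286 and 598 CPM in S-like cells and 1240, 1079, 1013, 969 and 983 CPM in G2M-like cells. The 3 states do not overlap. Every family kept that order in every library, with H1 genes from 40.7 to 90.8 CPM in non-cycling to 392 to 439 CPM in G2M-like cells and H4 genes from 22.0 to 32.0 to 91.4 to 114 CPM. Median depth moved with the state, from 3085 to 4531 UMIs a cell in non-cycling to 7550 to 10145 in S-like and 8858 to 12338 in G2M-like cells, and its part in the result was not tested beyond the thinned values given here.

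**Figure D1:**
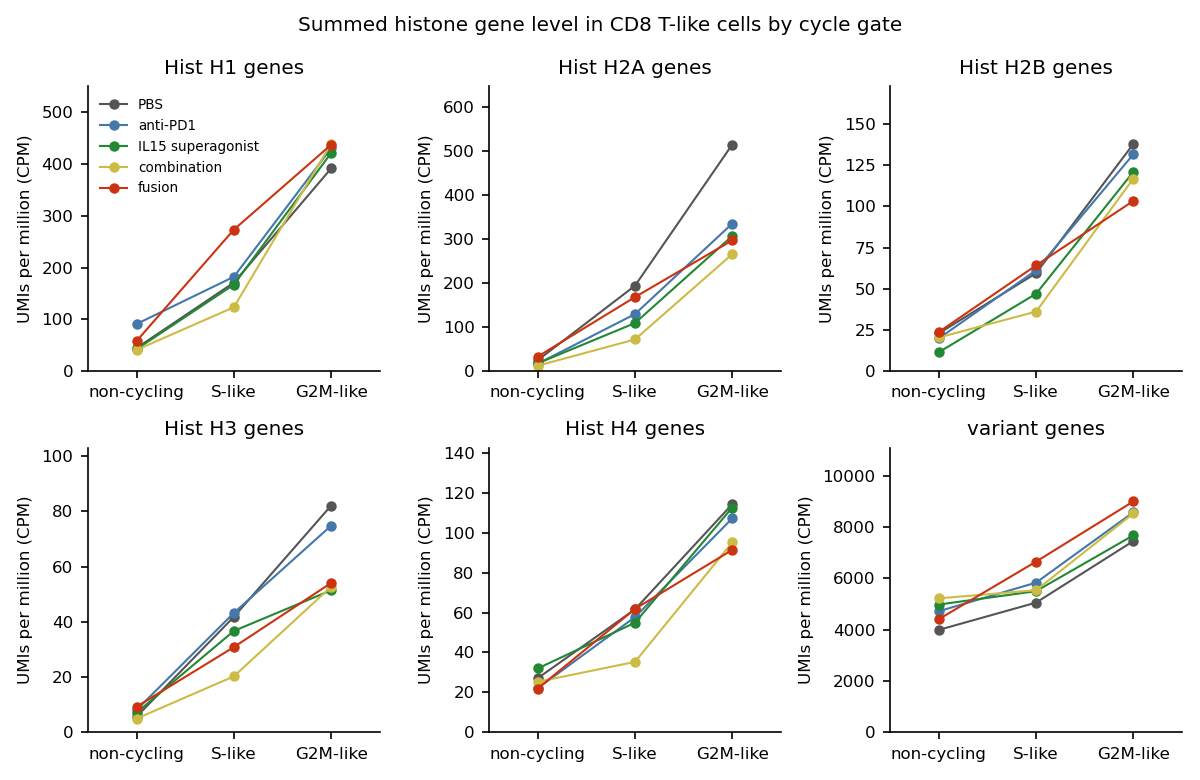
Summed CPM of the 5 Hist families and of the variant genes (y axes) in non-cycling, S-like and G2M-like CD8 T-like cells (x axes), 1 line per library. Lines rise from left to right in all panels, and PBS stands highest for H2A genes in G2M-like cells at 514 CPM against 265 to 335 CPM in the other libraries.

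A test across genes was made with edgeR, with the library as a block, so that each p-value speaks of the spread over these 5 differently treated libraries. In S-like against non-cycling CD8 T-like cells 26 of the 67 genes passed the filter on low counts, and 18 were higher and 0 lower at an adjusted p under 0.05, where 24.8% of all 9295 genes tested were higher and 25.9% lower. No histone gene was lower at an unadjusted p under 0.05 either, and DESeq2 called 18 higher and 0 lower. With no filter 27 genes were higher and 1 lower, since the filter leaves out many Hist genes that are low in both states. Of all 16301 genes in that setting 2751 were higher and 2206 lower. The median log2 fold change was 1.28 for the genes tested and -0.03 for all genes.

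In G2M-like against non-cycling cells 29 passed the filter and 26 were higher, with 0 lower, where 27.5% of all genes tested were higher and 24.3% lower. No gene was lower at an unadjusted p under 0.05 and DESeq2 called 25 higher and 0 lower. The median log2 fold change was 2.80 against 0.01 for all genes, and 44 were higher with no filter, where 2563 of all 15821 genes were. Of the 5 H1 genes 4 were higher in S-like and 5 in G2M-like cells. Of 14 H2A genes 6 were tested and 6 higher in both, and of 16 H2B genes 1 of 2 tested was higher in S-like and 5 of 5 in G2M-like cells. Of 11 H3 genes 2 of 2 tested were higher in S-like and 3 of 3 in G2M-like cells, and of 12 H4 genes 2 of 4 and 2 of 3. Genes low in non-cycling cells could pass the filter only through the cycling gates and so had to differ, which makes these counts a description of the genes tested. Fewer than 20 UMIs over the 5 libraries of non-cycling cells stood behind 5 of the 18 higher calls in S-like and 9 of the 26 in G2M-like cells. Among genes with at least 20 there, 13 of 21 were higher in S-like cells (median log2 1.06) and 17 of 20 in G2M-like cells (median 2.40).

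The largest fitted change was that of Hist1h2ap, an H2A gene with 8 UMIs in all non-cycling cells and at most 2 in any library. It had 2.86, 0, 0.842, 0.589 and 0.845 CPM in non-cycling cells, 70.8, 25.8, 17.7, 6.93 and 18.9 CPM in S-like and 191, 63.6, 44.2, 34.4 and 33.4 CPM in G2M-like cells. The fitted difference was 4.39 ± 0.28 (log2, SE) in S-like cells (edgeR adjusted p = 1.2e-07) and 5.84 ± 0.24 in G2M-like cells (adjusted p = 1.9e-10). With so few UMIs below, the size of the change and its rank are uncertain. By counting error alone, the 95% lower bound of the ratio of G2M-like to non-cycling CPM was 10.9 to 18.3 over the libraries. Non-cycling cells do not overlap with either cycling state, but S-like cells of PBS (70.8 CPM) exceeded G2M-like cells of the other libraries. PBS was the highest library in each state.

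Hist1h1b, the linker histone H1.5, had 2.86, 5.82, 3.37, 6.48 and 18.6 CPM in non-cycling, 59.4, 68.5, 66.5, 49.3 and 139 CPM in S-like and 136, 170, 142, 180 and 206 CPM in G2M-like cells. Its log2 fold change was 3.20 ± 0.18 and 4.37 ± 0.21 (edgeR adjusted p = 3.5e-08 and 1.1e-09). Fusion was the highest library in all 3 states. Hist1h2ae, the H2A gene with the most UMIs, had 4.28, 5.82, 5.05, 2.95 and 14.8 CPM in non-cycling, 72.2, 64.3, 47.2, 41.1 and 94.4 CPM in S-like and 193, 182, 152, 142 and 169 CPM in G2M-like cells. It rose by 3.13 ± 0.17 and 4.54 ± 0.22, with no overlap between states.

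In the fusion library, Hist1h1b was also present in the non-cycling cells of other classes, at 26.2 CPM in NK-like, 22.8 in DC-like, 16.6 in monocyte-like and 6.78 in macrophage-like cells, from 6 to 14 UMIs each. The 18.6 CPM of its non-cycling CD8 T-like cells (44 UMIs) lies within that range. The part of RNA from outside the cell in these low values was not tested.

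Other Hist genes called with large changes were Hist1h1a (3.01 in S-like and 3.65 in G2M-like cells) and Hist1h2bm (4.46 in G2M-like cells), with 14 and 4 UMIs in non-cycling cells. Hist1h2bj, an H2B gene, rose by 2.92 and 4.08, the linker gene Hist1h1d by 2.68 and 3.80, and the H3 gene Hist1h3e by 1.76 and 2.80. The H4 genes Hist1h4i and Hist1h4d rose by 1.32 and 1.22 in S-like cells and by 2.40 each in G2M-like cells, and Hist2h2ac by 1.26 and 2.68.

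Linker genes differed among themselves. Hist1h1e (H1.4) was already at 15.7, 32.6, 22.3, 16.2 and 20.7 CPM in non-cycling cells and reached 55.0, 55.9, 55.2, 39.9 and 70.2 CPM in S-like and 139, 133, 173, 148 and 135 CPM in G2M-like cells, a rise of 1.31 and 2.78. Hist1h1c (H1.2) had 22.8, 45.4, 12.6, 15.0 and 13.9 CPM in non-cycling and 27.1, 30.1, 19.9, 13 and 17.1 CPM in S-like cells, a log2 difference of -0.03 ± 0.17 that did not pass the test (edgeR adjusted p = 0.92). Its 57.5, 74.2, 54.7, 56.2 and 38.1 CPM in G2M-like cells were 1.48 ± 0.18 higher (adjusted p = 9.6e-06). The 2 low states of Hist1h1c overlap, while 4 of 5 libraries had more in G2M-like cells than any library had in the non-cycling state.

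**Figure D2:**
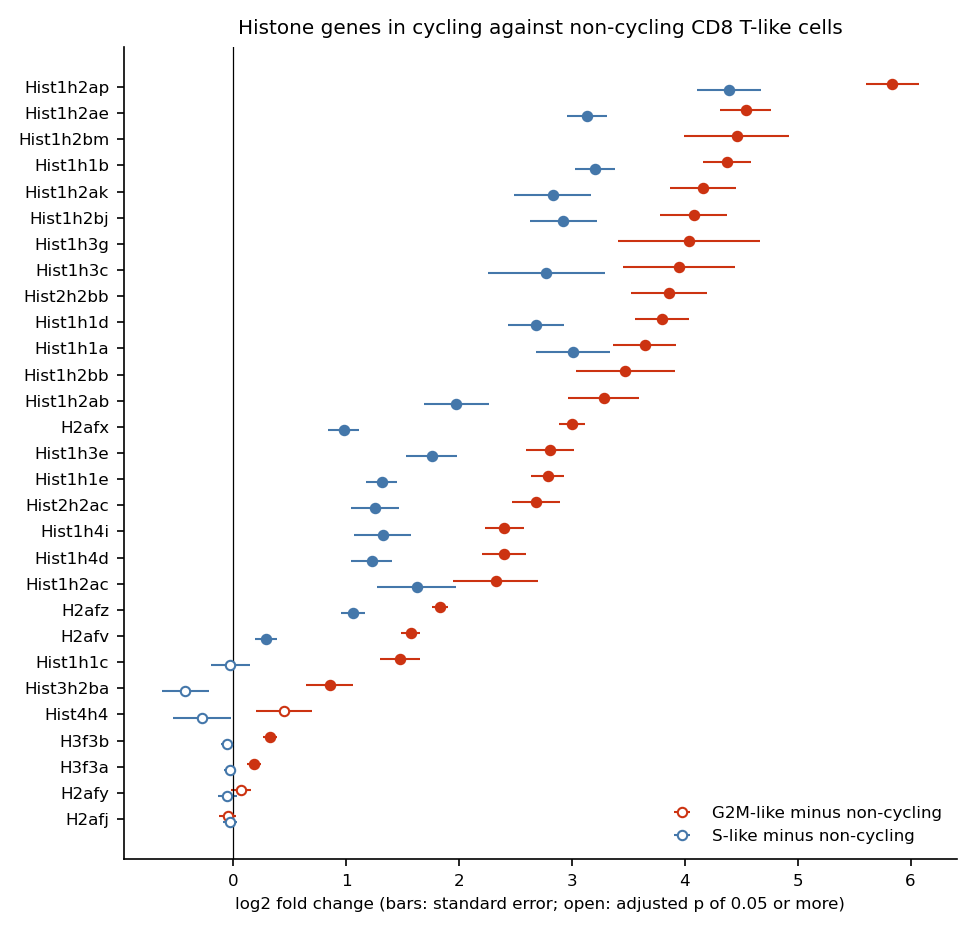
Log2 fold change (x axis) of the 29 histone genes tested in G2M-like against non-cycling CD8 T-like cells (red), with the S-like comparison (blue) where the gene was tested; points are edgeR estimates over 5 libraries, bars are standard errors, and open points did not pass the test. Hist1h2ap, with 8 UMIs in non-cycling cells, stands farthest right at 5.84 and 4.39, and H2afj and H2afy lie near 0 in both.

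Among variant genes, H2afz, H2afx and H2afv were higher in cycling CD8 T-like cells, and H2afj and H2afy did not pass the test in either state. H2afx had 32.8, 73.4, 88.0, 83.4 and 58.3 CPM in non-cycling, 97.9, 138, 151, 131 and 181 CPM in S-like and 418, 524, 599, 603 and 620 CPM in G2M-like cells. The log2 fold change was 0.98 ± 0.14 in S-like (edgeR adjusted p = 6.2e-05) and 3.0 ± 0.12 in G2M-like cells (adjusted p = 1.1e-10). The states do not overlap, and PBS was lowest in each.

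H2afz had 750, 615, 696, 687 and 617 CPM in non-cycling, 1505, 1526, 1260, 1215 and 2021 CPM in S-like and 2438, 2513, 2250, 2446 and 2700 CPM in G2M-like cells, with log2 fold changes of 1.06 ± 0.11 and 1.83 ± 0.07 and no overlap. H2afv, its close relative, had 286, 199, 226, 253 and 213 CPM, 351, 316, 251, 265 and 348 CPM, and 836, 750, 623, 675 and 732 CPM in the same states. H2afv rose by 0.29 ± 0.10 in S-like cells (edgeR adjusted p = 0.022), where the groups overlap, and by 1.57 ± 0.08 in G2M-like cells. The S-like call for H2afv was lost without anti-PD1 (log2 0.24, adjusted p = 0.081) and without fusion (0.20, adjusted p = 0.058).

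The H3.3 genes moved little. H3f3b and H3f3a differed by -0.05 ± 0.05 and -0.03 ± 0.06 in S-like cells, neither past the test, and were 0.32 ± 0.06 and 0.18 ± 0.06 higher in G2M-like cells (edgeR adjusted p = 0.00057 and 0.022). The H3f3a call was lost without PBS (log2 0.18, adjusted p = 0.055), without combination (0.18, adjusted p = 0.076) and without fusion (0.11, adjusted p = 0.12). H2afj differed by -0.03 and -0.05 and H2afy by -0.05 and 0.07. Of the smaller called changes in G2M-like cells, Hist3h2ba, an H2B gene outside the main cluster, rose by 0.85.

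Between the cycling states, the S-like cells had less histone RNA than the G2M-like cells. Of 38 genes tested 33 were lower in S-like cells and 0 higher, where 9.06% of all 9356 genes were lower and 6.89% higher. By an unadjusted p under 0.05 the counts were 34 lower and 0 higher, and DESeq2 called 26 lower and 0 higher. The median log2 difference was -1.05 against 0.00 for all genes. Genes low in S-like cells could pass the filter through the G2M-like gate alone, so these counts too describe the genes tested. Without the library block 17 were lower, and with each cell thinned to 2000 UMIs 14 of 17 tested were lower. Of all genes 240 of 9356 were lower without the block and 293 of 4123 in thinned cells.

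H2afx showed the largest difference, S-like minus G2M-like, of -2.0 ± 0.06 (edgeR adjusted p = 2.1e-12), followed by Hist1h2bc at -1.69, Hist1h2af at -1.45 and Hist1h1c at -1.41. H2afv differed by -1.25, H2afz by -0.74, Hist1h2ae by -1.39 and Hist1h1b by -1.17. The smallest called differences were those of H3f3a (-0.19), H3f3b (-0.35), Hist1h2ac (-0.64) and Hist4h4 (-0.66). The Hist1h2ac call was lost without IL15 superagonist (-0.64, adjusted p = 0.055), without combination (-0.52, adjusted p = 0.060) and without fusion (-0.58, adjusted p = 0.16), and that of Hist4h4 without fusion (-0.81, adjusted p = 0.054). Hist1h1a at -0.47 ± 0.16 did not pass (adjusted p = 0.066), nor did Hist1h4c, Hist1h3a, H2afy and H2afj.

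The genes that make and carry histones, given from a list of 37 genes outside the symbol rule, also differed by state. Of 36 tested, 21 were higher and 3 lower in S-like than in non-cycling CD8 T-like cells, and 21 higher and 2 lower in G2M-like cells. Of all genes tested 24.8% were higher and 25.9% lower in S-like cells, and 27.5% and 24.3% in G2M-like cells. Chaf1a, which with Chaf1b forms the large subunits of the assembly factor CAF-1, was 3.80 and 3.70 higher (log2), and Asf1b, a carrier of new H3 and H4, 3.67 and 4.41 higher. Chaf1b rose by 1.96 and 1.26, and Hat1, which acetylates new H4, by 1.31 and 1.00. Daxx, a chaperone of H3.3, was lower in both, at -0.89 and -0.95.

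Slbp, the protein that binds the stem-loop, had 121, 97.8, 157, 130 and 138 CPM in non-cycling, 219, 193, 202, 183 and 328 CPM in S-like and 166, 175, 176, 170 and 242 CPM in G2M-like cells. It was higher in S-like cells by 0.70 ± 0.12 and in G2M-like cells by 0.48 ± 0.10, and S-like cells exceeded G2M-like cells by 0.26 ± 0.06 (edgeR adjusted p = 0.0082). Between the cycling states 5 of 36 such genes were higher in S-like cells (Chaf1b 0.83, Hat1 0.38, Slbp 0.26, Nap1l4 0.25 and Npm1 0.16) and 3 lower (Hjurp -1.14, Anp32e -0.89 and Asf1b -0.67). Of all genes tested 6.89% were higher and 9.06% lower, and the counts of 5 and 3 genes are small. Of 3 histone genes with other symbols, Cenpa, the centromeric H3 variant, was -1.85, H1fx -1.99 and H1f0 -1.29 in that comparison.

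Macrophage-like cells showed a smaller and more mixed change. Summed Hist RNA was 253, 201, 214, 148 and 129 CPM in cycling and 104, 85.0, 82.4, 54.4 and 75.7 CPM in non-cycling cells, and the 2 states do not overlap. Of 15 genes tested 9 were higher and 3 lower, where 18.9% of all genes were higher and 21.2% lower, and the median log2 difference was 0.62 against 0.00 for all genes. With no filter 18 were higher and 3 lower, where 1727 and 2063 of all 15540 genes were. Tumor transcripts, 5 melanocyte genes, moved with the state at 13.7 to 270 CPM in cycling and 7.91 to 28.8 CPM in non-cycling cells, and their part in the result was not tested.

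Hist1h1b in macrophage-like cells was 17.8, 22.2, 23.9, 17.2 and 21.2 CPM in cycling and 1.25, 2.18, 1.92, 1.21 and 6.78 CPM in non-cycling cells, a log2 difference of 3.17 ± 0.25 (edgeR adjusted p = 8.1e-08) with no overlap. Hist1h2ae was 2.74 higher, H2afv 1.33, H2afx 1.21 and H2afz 0.62. H3f3b was lower in cycling macrophage-like cells, at 2697, 3303, 2227, 2741 and 2487 CPM against 3655, 4939, 3642, 4005 and 3459 CPM (-0.66 ± 0.06, adjusted p = 2.2e-07), and the groups do not overlap. H3f3a (-0.34) and H2afj (-0.27) were lower as well. Hist1h1c (0.49) and Hist1h1e (0.73) also rose, and both calls were lost without PBS (0.34, adjusted p = 0.11, and 0.52, adjusted p = 0.072). Of the 37 histone supply and chaperone genes 35 were tested, 17 higher and 2 lower beside the 18.9% and 21.2% of all genes, led by Chaf1a (3.22) and Asf1b (3.14).

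NK-like cells allowed fewer tests. Of 10 genes tested 4 were higher in cycling cells and 1 lower, where 10.4% of all genes were higher and 6.76% lower. With no filter 11 were higher, where 690 of all 13619 genes were, and without the library block 2, where 178 of 5574 were. DESeq2 called none lower, where 183 of all 5574 genes were. Hist1h1b was 17.5, 88.0, 23.6, 9.55 and 103 CPM in cycling and 1.89, 5.80, 4.40, 5.89 and 26.2 CPM in non-cycling cells (2.51 ± 0.34, edgeR adjusted p = 7.3e-05), with overlap between the groups but a higher value in the cycling cells of each library. H2afx was 1.41 higher, H2afv 0.69 and H2afz 0.63. The groups overlap for each of the 7 variant genes tested, and only 1 of the 7 was higher in the cycling cells of every library. H3f3b was lower (-0.27, adjusted p = 0.017), a call lost without IL15 superagonist (-0.27, adjusted p = 0.073).

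The change with cycling was also compared between classes by an interaction term, chosen after the data were seen. Of 31 genes tested, 1 had a larger and 7 a smaller log2 effect of cycling in macrophage-like than in CD8 T-like cells (edgeR, adjusted p under 0.05), where 12.2% and 8.79% of all genes did. The linker genes Hist1h1d and Hist1h1e and the H3 gene Hist1h3e were among the 7, and H2afv was the 1. Of these, Hist1h1d and Hist1h3e did not pass the filter on low counts in macrophage-like cells alone. Of 22 genes tested in NK-like cells 0 had a larger and 3 a smaller effect than in CD8 T-like cells, where 2.28% and 0.852% of all genes did, and 0 had a larger and 9 a smaller one at an unadjusted p under 0.05. No other tool was run for these interactions.

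Cell classes were set side by side in their non-cycling cells. CD4 T-like, Treg-like, neutrophil-like and B-like cells, with 4, 3, 4 and 2 libraries there, enter the orders below only where they are named. H3f3b was highest in neutrophil-like cells at 6745 ± 872 CPM (SD, n = 4 libraries), then monocyte-like at 4729 ± 615 (n = 5), macrophage-like at 3940 ± 592, DC-like at 3342 ± 543 and NK-like cells at 2945 ± 402, and lowest in CD8 T-like cells at 2242 ± 339. H3f3a ran from 2437 ± 310 CPM in neutrophil-like and 2298 ± 246 in monocyte-like cells to 1927 ± 224 in DC-like, 1682 ± 145 in macrophage-like, 975 ± 95 in NK-like and 879 ± 157 in CD8 T-like cells. Neighbours in these orders differed by less than the sum of their SDs, apart from neutrophil-like and monocyte-like cells for H3f3b and macrophage-like and NK-like cells for H3f3a.

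H2afz was highest in DC-like cells at 2073 ± 347 CPM and had 1209 ± 201 CPM in NK-like, 1201 ± 129 in monocyte-like, 1090 ± 102 in macrophage-like and 673 ± 57.2 in CD8 T-like cells. H2afv divided the classes otherwise, with 235 ± 34.3 CPM in CD8 T-like and 226 ± 13.3 in NK-like cells but 60.1 ± 19.3 in DC-like, 49.1 ± 12.6 in macrophage-like and 45.2 ± 8.47 in monocyte-like cells. H2afy was highest in DC-like cells at 437 ± 67.4 CPM and lay between 198 and 264 CPM in the 4 other classes of 5 libraries. H2afj varied least of these genes, from 370 ± 8.62 CPM in CD8 T-like to 454 ± 48.4 in monocyte-like cells. Hist1h1c, the linker gene that did not rise in S-like cells, was highest in B-like cells at 73.3 ± 4.15 CPM (n = 2) and neutrophil-like cells at 73.2 ± 23.1 (n = 4), against 22.0 ± 13.7 in CD8 T-like cells.

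**Figure D3:**
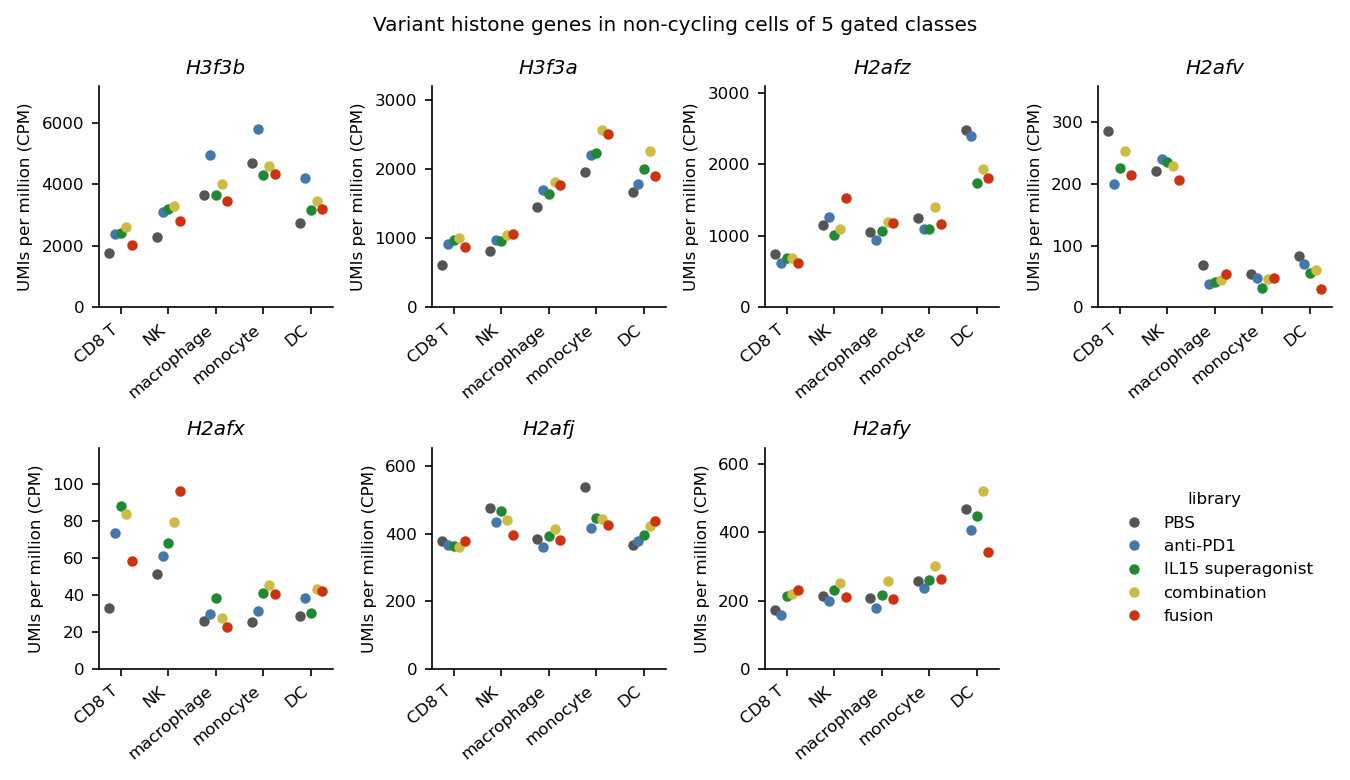
CPM (y axes) of 7 variant histone genes in non-cycling cells of 5 gated classes (x axes), 1 point per library. H2afv is at 199 to 286 CPM in CD8 T-like cells and at 37.8 to 68.6 CPM in macrophage-like cells, and H3f3b and H3f3a run the other way.

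Non-cycling macrophage-like against CD8 T-like cells gave 3 of 13 genes higher and 4 lower, where 34.6% and 34.8% of all genes were, and the median was -0.19 against -0.04 for all genes. With no filter 7 were higher and 9 lower, where 4075 and 3632 of all 15734 genes were. H3f3a was 1.07 ± 0.10 (edgeR adjusted p = 6.1e-07), H3f3b 0.93 and H2afz 0.81 higher in macrophage-like cells. Lower were Hist3h2ba (-2.32), Hist1h1e (-1.62), H2afx (-1.09) and H2afv, whose 68.6, 37.8, 40.7, 44.0 and 54.3 CPM stood against 286, 199, 226, 253 and 213 CPM (-2.17 ± 0.11, adjusted p = 8.6e-10). No library of one class reached the H2afv level of the other.

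Of the histone supply and chaperone genes 5 of 34 were higher and 20 lower in macrophage-like cells, where 34.6% and 34.8% of all genes were. Lower were, among others, Npat, the coactivator of Hist transcription (-1.97), and Slbp (-0.65). Znhit1, a subunit of the complex that loads H2A.Z, was 1.86 higher.

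NK-like against CD8 T-like cells, both non-cycling, gave 2 of 12 genes higher and 0 lower, where 12.3% of all genes were higher and 11.9% lower, and the median was 0.29 against -0.02. No histone gene was lower at an unadjusted p under 0.05, at which 6 were higher, and DESeq2 called 2 higher and 0 lower. H2afz was 0.79 ± 0.11 higher, at 1153, 1267, 1007, 1092 and 1527 CPM against 750, 615, 696, 687 and 617 CPM with no overlap, and H3f3b 0.36 higher. Monocyte-like against macrophage-like cells gave 5 of 14 higher and 1 lower, where 17.2% and 14.8% of all genes were, and the median was 0.26 against 0.00. Higher were H3f3a (0.48), H2afy (0.34), H3f3b (0.30), H2afj (0.26) and H2afz (0.17), and Hist1h2bc was lower (-1.07). The H2afz call was lost without PBS (0.13, adjusted p = 0.11), anti-PD1 (0.16, adjusted p = 0.14), IL15 superagonist (0.20, adjusted p = 0.080) or combination (0.15, adjusted p = 0.17), and that of Hist1h2bc without IL15 superagonist (-0.93, adjusted p = 0.057).

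Treatments had 1 library each, so they were compared by ratios of CPM with exact 95% intervals that cover counting error only, and no p-value was computed. In all CD8 T-like cells, fusion held more Hist RNA than combination: 700 against 301 CPM, 2.33-fold (95% interval 2.27 to 2.39). H2A genes were 2.79-fold, H1 genes 2.40-fold, H3 genes 2.11-fold, H2B genes 1.87-fold and H4 genes 1.80-fold higher. Past 1.5-fold, 34 of 49 genes with at least 50 UMIs were higher and 0 lower, where 12.3% of all genes were higher and 17% lower, and the median log2 ratio was 0.90 against -0.07 for all genes. The limit is on both libraries together, and fusion had 6522 CD8 T-like cells against 3232 in combination. Low genes could thus reach it mainly through fusion, also in the S-like and G2M-like gates. These counts, and the largest ratios below, describe the genes counted.

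The cells of both libraries differed in how many were cycling, and the histone difference was not alike in the cycle gates. In fusion 44.2% of CD8 T-like cells were S-like and 30.5% G2M-like, and in combination 25.2% and 6.65%. After thinning each cell to 2000 UMIs those shares were 29.7% and 28.2% against 7.09% and 5.11%. Of CD8 T-like cells with at least 4 cycle genes, 346 of 1140 in combination and 330 of 5204 in fusion had exactly 4. The cycling cells thus differed in their cycle gene counts, and the part of this in the ratios within the gates was not tested. Within G2M-like cells Hist RNA was 983 against 969 CPM, 1.01-fold (0.98 to 1.05), with 3 of 40 genes past 1.5-fold higher and 3 lower, where 6.58% and 11.1% of all genes were. Within S-like cells it was 598 against 286 CPM, 2.09-fold (2.0 to 2.18), with 24 of 39 genes higher and 1 lower, where 9.43% and 14.1% of all genes were. In non-cycling cells it was 145 against 103 CPM, 1.41-fold (1.21 to 1.64), with 1 of 11 genes higher and 0 lower, where 6.68% and 16.7% of all genes were.

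Hist1h1b was 154 CPM in fusion and 47.7 CPM in combination, 3.22-fold (3.02 to 3.44), and the ratio was 2.83 in S-like, 1.14 (1.05 to 1.25) in G2M-like and 2.87 (1.68 to 5.03) in non-cycling cells, the last from 44 and 22 UMIs. Hist1h2ae was 2.99-fold higher in all cells, 2.30-fold in S-like and 1.19-fold in G2M-like cells. The largest ratios among genes with 50 UMIs were those of Hist1h2af at 4.60 (2.82 to 8.03), Hist1h4k at 4.20 (1.71 to 13.4, from 65 and 5 UMIs) and Hist1h1a at 3.96 (3.31 to 4.77). At the other end stood Hist3h2a at 0.829 (0.455 to 1.58), Hist2h2be at 0.862 (0.582 to 1.30) and Hist1h3a at 0.960 (0.714 to 1.30), whose intervals include 1.

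Variant genes differed less between fusion and combination, at 1.26-fold in sum. H2afx was 1.90-fold, H2afz 1.83-fold and H2afv 1.52-fold higher in all CD8 T-like cells, but 1.03-fold, 1.10-fold and 1.08-fold within G2M-like cells and 0.699-fold, 0.899-fold and 0.845-fold within non-cycling cells. H2afy was 1.41-fold higher in all, 1.44-fold in S-like and 1.57-fold (1.45 to 1.71) in G2M-like cells, at 311 against 198 CPM in the last, and 1.05-fold (0.942 to 1.18) in non-cycling cells. H2afj was 1.22-fold, H3f3a 1.05-fold and H3f3b 1.01-fold.

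**Figure D4:**
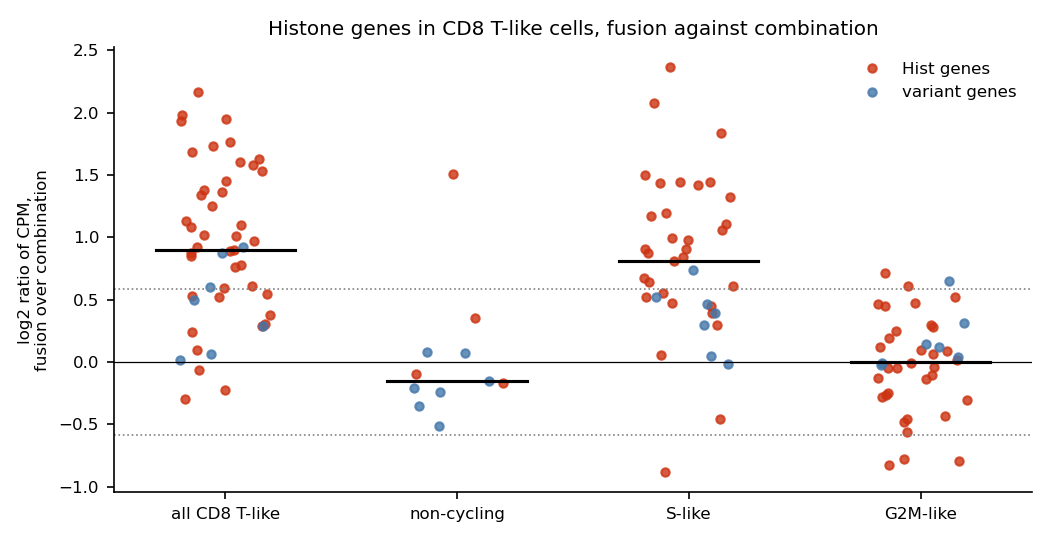
Log2 ratio of CPM, fusion over combination (y axis), of histone genes with at least 50 UMIs over both libraries in all, non-cycling, S-like and G2M-like CD8 T-like cells (x axis); each point is a gene, black bars are medians and dotted lines mark 1.5-fold. Hist genes lie mostly above 0 in all and in S-like cells, with medians of the genes shown of 0.90 and 0.81, and around 0 in G2M-like cells.

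Against PBS, summed Hist RNA in all CD8 T-like cells was 0.915-fold in anti-PD1 (0.875 to 0.957), 0.595-fold in IL15 superagonist (0.569 to 0.623), 0.526-fold in combination (0.505 to 0.548) and 1.22-fold in fusion (1.18 to 1.27). These 4 comparisons share the PBS library and are not independent. S-like cells were 35.0% of the class in PBS, 35.3% in anti-PD1 and 20.1% in IL15 superagonist, and G2M-like cells 13.4%, 14.0% and 5.95%. In anti-PD1 3 of 32 genes were past 1.5-fold higher and 2 lower (5.82% and 9.56% of all genes), with a median log2 ratio of -0.01 against -0.05. In IL15 superagonist 1 of 34 was higher and 14 lower (13.5% and 17.8%), with a median of -0.43 against -0.05, and in combination 1 of 36 was higher and 18 lower (10.9% and 17.2%), with a median of -0.58 against -0.08. In fusion 10 of 50 were higher and 9 lower (16.8% and 27.6%), with a median of 0.19 against -0.11. Here too low genes could reach the limit mainly through fusion, with 6522 cells against 944 in PBS.

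Hist1h2ap, an H2A gene, and Hist1h2bc, an H2B gene, were the farthest below PBS in anti-PD1 (0.367-fold and 0.392-fold), IL15 superagonist (0.162-fold and 0.149-fold) and combination (0.106-fold and 0.142-fold). The gene after them was Hist1h2ak in anti-PD1 (0.693-fold), Hist1h3c in IL15 superagonist (0.386-fold) and Hist1h4c in combination (0.371-fold). In fusion the order was Hist1h2bc (0.176-fold), Hist3h2a (0.210-fold) and Hist1h2ap (0.292-fold). In PBS these rest on 467 UMIs of Hist1h2ap, 66 of Hist1h2bc and 18 of Hist3h2a. Farthest above were Hist1h2bm (2.02, 1.18 to 3.62), Hist3h2ba and Hist1h3i in anti-PD1, H3f3a (1.51), Hist2h4 and H3f3b in IL15 superagonist, H3f3a (1.54), Hist3h2ba and H3f3b in combination, and Hist1h1a (3.41), Hist1h1b (2.55) and H2afx (2.21) in fusion.

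The PBS library stood apart in the ratio of 2 H2A genes. Hist1h2ap was counted 0.987 times per Hist1h2ae UMI (95% interval 0.867 to 1.12) in PBS CD8 T-like cells, and 0.375, 0.314, 0.212 and 0.195 times in the other libraries in their order. Within G2M-like cells the ratio was 0.988 and 0.349, 0.291, 0.242 and 0.198. In macrophage-like cells it was 0.355 in PBS and 0.118 to 0.264 in the other libraries, and the interval of PBS overlapped those of the 4 others. In DC-like cells it was 0.627 and 0.0571 to 0.308, and the interval of PBS overlapped those of anti-PD1 and fusion. Hist1h2ae alone was not highest in PBS in S-like CD8 T-like cells, at 72.2 CPM against 94.4 CPM in fusion. Hist1h2ap and its near-identical copies cannot be told apart by these counts, so the ratio may concern any of them.

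**Figure D5:**
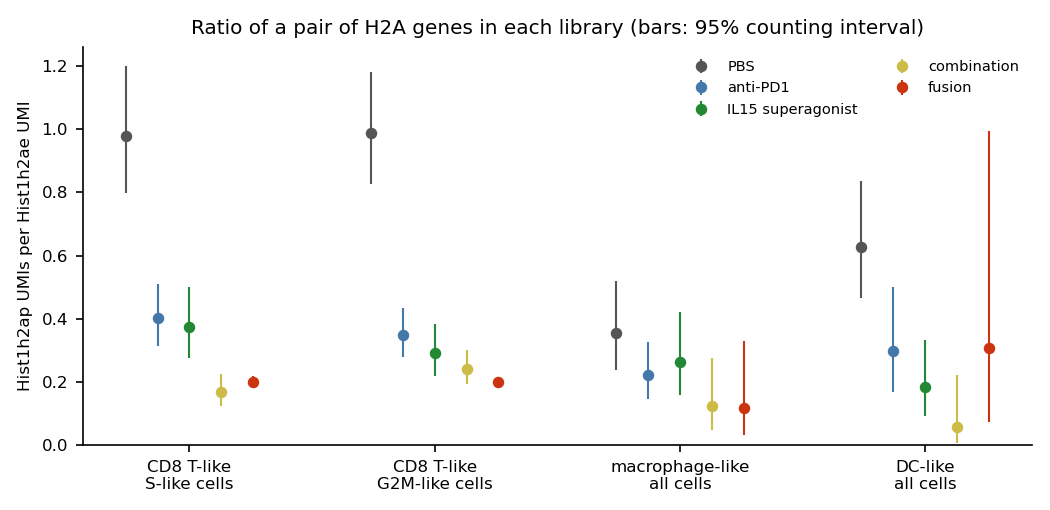
UMIs of Hist1h2ap per UMI of Hist1h2ae (y axis) in 4 groups of cells (x axis), 1 point per library with its exact 95% counting interval. PBS is near 0.98 in both cycling gates of CD8 T-like cells, above the 0.169 to 0.402 of the other libraries.

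Of 23 histone genes compared, others also followed a library across classes. The share of all genes that do so is not given, so these cases are a description of single genes. Over the classes with enough cells, PBS was the highest library in each class for Hist1h2ap, Hist2h2be and Hist3h2a and the lowest in each for H3f3a, which had 648 CPM in PBS CD8 T-like cells and 926 to 1046 CPM in the others. Fusion was the highest in each class for Hist1h1b and the lowest for Hist3h2a. Combination was the lowest in each for Hist1h2ap, Hist1h2ae and Hist1h4d, and anti-PD1 for H2afy. These were 3 to 5 classes a gene. Mitochondrial RNA moved with PBS, at medians of 3.09% to 3.37% of UMIs in the CD8 T-like gates of PBS and 2.15% to 2.58% in those of the other libraries, and its part in the result was not tested. With 1 library per treatment, a library and its treatment cannot be told apart.

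In the other classes few histone genes had 50 UMIs. Summed Hist RNA of NK-like cells was 182, 347, 144, 131 and 330 CPM, high in anti-PD1 and fusion. Past 1.5-fold against PBS, 5 of 13 genes were higher in NK-like cells of anti-PD1 (11.6% of all genes), 0 of 11 in IL15 superagonist (18.3%), 0 of 10 in combination (17.7%) and 4 of 11 in fusion (23%). None was lower in these libraries, where 12%, 16.4%, 15.3% and 23.5% of all genes were. Among macrophage-like cells 5 of 18 were lower in anti-PD1 (10.1%), 1 of 18 in IL15 superagonist (7.31%), 6 of 15 in combination (11.5%) and 4 of 15 in fusion (19.7%). In the same order 1, 3, 0 and 1 were higher, against 5.17%, 5.65%, 4% and 5.68% of all genes. Among monocyte-like cells 2 of 14 were lower in anti-PD1 (10.3%), 4 of 12 in IL15 superagonist (13.7%), 3 of 12 in combination (13.9%) and 1 of 11 in fusion (22.5%). In the same order 2, 1, 1 and 3 were higher, against 6.96%, 7.11%, 6.65% and 11.8% of all genes. Among DC-like cells 3 of 19 were lower in anti-PD1 (9.69%), 3 of 17 in IL15 superagonist (13.7%), 8 of 16 in combination (14%) and 5 of 14 in fusion (22.1%). In the same order 1, 1, 0 and 3 were higher, against 7.85%, 10.2%, 8.65% and 14.5% of all genes.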

How the data were processed

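UMI counts per gene and cell barcode were deposited by the authors as whole numbers. Per the submitters' processing notes they were made with Cell Ranger 2.1.1 on mm10. No source used here states how barcodes were filtered, which annotation was used, whether strand was used, or where reads shared by similar genes went. Barcodes with at least 200 genes and at most 10% mitochondrial UMIs were kept (0 and 394 removed). Cells positive for markers of more than 1 lineage were removed as candidate doublets (2.65% to 5.55% of a library), and 10.3% to 22.3% of cells had no class. The markers were gated per cell without clustering. Counts were summed per class, cycle gate and library.

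Sums were tested with edgeR 4.0.16 in R 4.3.3 (filterByExpr, TMM, quasi-likelihood, library as block, Benjamini-Hochberg adjustment over all genes tested). On data simulated for S-like against non-cycling CD8 T-like cells (9192 genes), 98 of 109 genes changed by 1 log2 unit and 86 of 86 changed by 2 were called, with 4 false calls among 8997. The simulation gave all genes the same set spread beyond counting error. Its rates therefore need not hold for genes with few UMIs in a state. DESeq2 1.42.0, RLE scaling, no filter, no block, leaving out each library, thinning to 2000 UMIs, a stricter cycle gate and keeping doublets were alternatives. CPM ratios of treatments have exact conditional 95% intervals, over genes with at least 50 UMIs in both libraries together. Tables were made in Python 3.11.15.

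Genes named are the variant genes, the 12 Hist genes with most UMIs, the 4 largest and 4 smallest called changes of a test, the 3 farthest genes on each side of a treatment comparison, and up to 8 supply and chaperone genes. The histone genes, marker lists and partner list were chosen with earlier results of these data known. The comparison of cycling effects between classes was added after seeing the data. Of the 81 genes 79 were matched by identifier to GENCODE M21. Hist1h2bm and Hist1h2bh were not.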

Additional observations from a re-analysis of the deposited data

Results flagged for a closer look

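The change of histone genes with cycling differed between cell classes by an edgeR interaction test over the 5 libraries, a comparison chosen after the data were seen. S-like and G2M-like cells, and UMIs per cell, are not in the same proportion in the cycling cells of each class, and the part of either in these differences was not tested. Macrophage-like cells were set against CD8 T-like cells for 31 genes, of which 1 had a larger and 7 a smaller log2 effect of cycling, where 12.2% of all genes had a larger and 8.79% a smaller one. The difference was -2.0 for Hist1h3e, an H3 gene, -1.77 for the linker gene Hist1h1d and -1.15 for Hist1h1e. Hist1h3e and Hist1h1d did not pass the filter on low counts when macrophage-like cells were tested alone. Both could pass here through CD8 T-like cells, so the size of their differences is uncertain. It was -0.67 for H3f3b, -0.64 for H2afz, -0.63 for H2afx and -0.30 for H3f3a, and 0.57 for H2afv. Without PBS the calls for H3f3a (adjusted p = 0.054), H2afx (-0.55, adjusted p = 0.095) and Hist1h1d (-1.31, adjusted p = 0.14) were lost. Without anti-PD1 those for H2afx (-0.73, adjusted p = 0.056) and H2afv (0.51, adjusted p = 0.057) were lost. H2afv was also lost without IL15 superagonist (0.39, adjusted p = 0.14), and without combination H2afv (0.51, adjusted p = 0.054), H3f3a (-0.29, adjusted p = 0.086) and Hist1h1d (-1.70, adjusted p = 0.091) were.

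NK-like cells were set against CD8 T-like cells for 22 genes, with 0 larger and 3 smaller effects, where 2.28% of all genes had a larger and 0.852% a smaller one. The difference was -1.38 for Hist1h1e, -0.75 for H2afz and -0.40 for H3f3b. The Hist1h1e call was lost without combination (-1.20, adjusted p = 0.065). The H2afz call was lost without IL15 superagonist (-0.70, adjusted p = 0.094), combination (-0.68, adjusted p = 0.075) or fusion (-0.57, adjusted p = 0.068). That of H3f3b was lost without PBS (-0.33, adjusted p = 0.10), anti-PD1 (-0.40, adjusted p = 0.059), IL15 superagonist (-0.38, adjusted p = 0.094) or fusion (-0.28, adjusted p = 0.072). With no filter on low counts the smaller effects numbered 9 in macrophage-like and 5 in NK-like cells.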

How the results depend on the processing

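States and classes were compared within libraries, with the library as a block, and the counts without the block are given below. No paired analysis was possible for the treatments because each has 1 library. Leaving out 1 library at a time, histone genes higher in S-like than in non-cycling CD8 T-like cells numbered 17 to 19 (18 with all), in G2M-like cells 22 to 29 (26), in cycling macrophage-like cells 7 to 10 (9) and in cycling NK-like cells 3 to 6 (4), those lower in S-like than in G2M-like cells 30 to 33 (33), and those lower in cycling macrophage-like and NK-like cells 3 and 0 to 1. Non-cycling macrophage-like against CD8 T-like cells gave 3 to 6 higher (3 with all) and 4 to 6 lower (4), NK-like 2 to 3 higher, and monocyte-like against macrophage-like cells 4 to 5 higher and 0 to 1 lower. No filter on low counts gave 1 lower gene in S-like cells, 44 higher in G2M-like, 18 in cycling macrophage-like and 11 in cycling NK-like cells, and 7 higher and 9 lower in macrophage-like against CD8 T-like cells. Thinning to 2000 UMIs, with fewer genes tested, gave 11 higher in S-like, 14 lower in S-like against G2M-like, 4 higher in cycling macrophage-like, 0 lower in cycling NK-like and 0 lower in monocyte-like cells. Of all genes thinning gave, in that order, 1543 of 6815, 293 of 4123, 568 of 4366, 7 of 2571 and 1094 of 7595. Without the block there were 17 lower in S-like against G2M-like, 2 higher and 0 lower in cycling NK-like, 1 higher in NK-like against CD8 T-like, and 1 higher and 0 lower in monocyte-like cells. Of all genes 240 of 9356, 178 and 22 of 5574, 507 of 7512, and 585 and 515 of 8702 were, in that order. DESeq2 gave 0 lower in cycling NK-like cells, doublets kept gave 5 higher in macrophage-like against CD8 T-like cells, and the stricter cycle gate (at least 6 genes, or 0) gave 2 lower there and 2 higher and 0 lower in monocyte-like cells. Of all genes 183 of 5574, 3078 of 9065, 2021 of 6471, and 665 and 595 of 6791 were, in that order.

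Past 1.5-fold in all CD8 T-like cells, non-cycling cells alone gave 0 lower for anti-PD1 against PBS, 2 higher and 0 lower for IL15 superagonist, 2 higher and 1 lower for combination, 1 higher and 0 lower for fusion, and 1 higher for fusion against combination. These are counts of 8 to 11 genes with 50 UMIs, against 32 to 50 in all cells, where 6.68% to 18.7% of all genes were higher and 10.2% to 24.5% lower, and cannot be set against the counts in all cells. A limit of 200 UMIs gave 0 higher and 1 lower for anti-PD1 and 6, 9 and 3 lower for IL15 superagonist, combination and fusion against PBS, and 20 UMIs 5 lower for anti-PD1. Thinned cells gave 0 higher and 1 lower for anti-PD1, 9 lower for IL15 superagonist, 2 higher and 10 lower for combination, and 20 higher and 2 lower for fusion against PBS. With doublets kept there were 5 lower for anti-PD1 and 0 higher for IL15 superagonist and combination. The cause of these shifts was not tested. For the limits of 200 and 20 UMIs, thinned cells and doublets kept, the shares of all genes are not given. Those counts therefore cannot be set against all genes. Over 109 called results for single genes, 1168 recomputed values kept direction and call, 80 kept direction only, 32 of them without the block, and none changed direction. Not every result was recomputed in every setting. In thinned cells 64 of the 109 kept direction and call and 5 direction only, and under the stricter cycle gate 96 and 4. The others had no recomputed value there, so those settings are silent on them. Hist genes other than the 12 with most UMIs are limited by their counts.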
